A study of Saccharomyces cerevisiae with 56 samples.

Results

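The nuclear DNA captured at an HO-induced break in yeast lacking Rad27 came from 445 places in the interior of the chromosomes, and 21 of these places had donated DNA in more than one genotype. The 21 loci are short stretches of the R64 genome, most of them inside or at the edge of a protein-coding gene. They were found in the lists of single-donor insertions of *rad27*Δ, *rtt105*Δ *rad27*Δ and *rad27*Δ *rfa1*-t33 cells. Only donors more than 20 kb from a chromosome end were considered. Those near Ty elements (400 bp), in the rDNA of chromosome XII or near the mating-type cassettes (700 bp) were left out. The rest were merged when 500 bp or less apart, and the loci were chosen by their donor positions, at least 2 of the 3 lists having a donor there. This chose 4.72% of the merged loci and 58 of 490 interior insertions (11.84%), namely 22 of 224 in *rad27*Δ, 28 of 212 in *rtt105*Δ *rad27*Δ and 8 of 54 in *rad27*Δ *rfa1*-t33. The number of loci and the values of these 3 lists are therefore a description and carry no test.

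Rad27 is the yeast flap endonuclease (FEN1 in humans), which trims the 5′ flaps that arise when the lagging strand is copied as Okazaki fragments. RPA, whose largest subunit is encoded by *RFA1*, coats single-stranded DNA, and Rtt105 escorts RPA into the nucleus. A templated insertion is a copy of DNA from elsewhere that is joined into a break during repair, and *Break-Ins* reads such copies by sequencing the repaired *MAT***a** junction from pooled survivors.

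All strains were haploid derivatives of JKM139 that carry a galactose-inducible HO endonuclease and lack both silent mating cassettes. By their labels all carry DELho, ade3::GAL10::HO and *MAT***a**, have both silent cassettes replaced (hmr::ADE1 and hml::ADE1), and hold the auxotrophic alleles trp1::hisG, ura3-52, ade1 and lys5 with a *leu2* allele, and each genotype is a single strain. The mutant alleles are rad27::klTRP1, rtt105::hphMX with rad27::klTRP1, rfa1-t33 with rad27::klTRP1, rtt105::hphMX alone, rfa1-t33 alone and sgs1::KanMX with or without exo1::TRP1, and the labels spell the RPA allele RFA1-t33 in sample names. For *rad27*Δ there are 14 libraries, of which 8 are labelled 30 °C, 3 are labelled 23 °C and 3 are labelled 37 °C, and a single list that does not say which library an insertion came from or whether the libraries at 37 °C are among its sources. The *rtt105*Δ *rad27*Δ list pools 3 libraries, the *rad27*Δ *rfa1*-t33 list 2, the *rtt105*Δ list 8, the *rfa1*-t33 list 3, the *sgs1*Δ *exo1*Δ list 4 and the *sgs1*Δ list 2, all labelled 30 °C. By the labels the *rad27*Δ libraries comprise 820032 colonies, or 600672 without those at 37 °C, and the colonies numbered 374304 in *rtt105*Δ, 111840 in *rtt105*Δ *rad27*Δ, 53184 in *rfa1*-t33 and 14976 in *rad27*Δ *rfa1*-t33. The 2 *rad27*Δ *rfa1*-t33 libraries had 14304 and 672 colonies, so nearly all colonies behind that list belong to 1 library. Since the lists hold neither a library nor a read number, a line is an insertion and there is no spread between libraries.

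The identity of a single list needs a caution. The deposited list of libraries names another file for *rad27*Δ *rfa1*-t33 than the file that carries this genotype's name, and the latter was used. Without it 15 of the 21 loci remained, those that *rad27*Δ and *rtt105*Δ *rad27*Δ share. The read names show no sequencing run common to any pair of the 3 lists.

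Of the 21 loci, 13 were shared by *rad27*Δ and *rtt105*Δ *rad27*Δ alone, 3 by *rad27*Δ and *rad27*Δ *rfa1*-t33 and 3 by *rtt105*Δ *rad27*Δ and *rad27*Δ *rfa1*-t33. Both remaining loci, the interval between *CDC14* and *SUP6* and the *PSR1* gene, had insertions from all 3 lists, which is 0.449% of the 445 merged loci. The loci lay on 12 chromosomes. A locus held 2 insertions in 12 cases, 3 in 6 cases and 4 or more in 3 cases, while 418 of the 445 merged loci had a single insertion and 6 had 2 or more insertions of 1 list only.

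**Figure D1:**
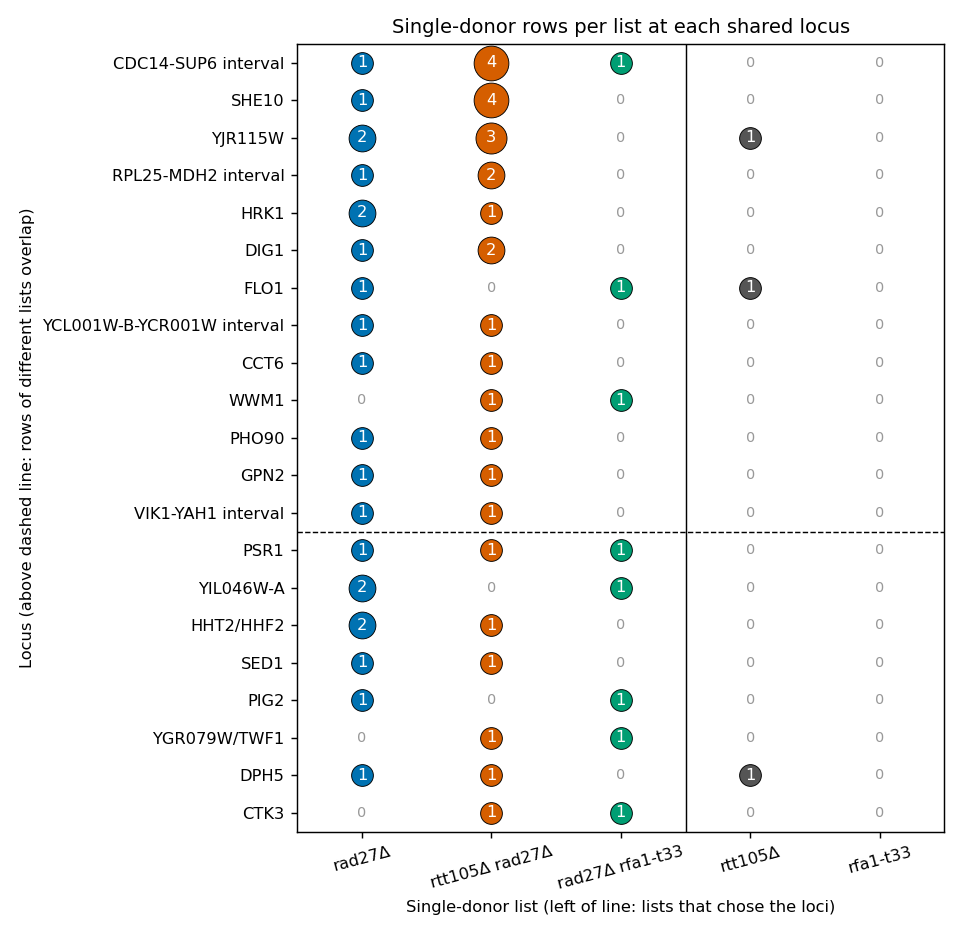
Number of single-donor insertions (digits and point size) of 5 genotypes (x axis) at each of the 21 shared loci (y axis), with the 3 lists that chose the loci left of the solid line. The *rtt105*Δ *rad27*Δ list gave 4 insertions at the *CDC14*-*SUP6* interval and at *SHE10*, the *rtt105*Δ list gave 1 at each of 3 loci and the *rfa1*-t33 list gave 0 at all of them.

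The loci were of 2 kinds. At 13 of them insertions of different lists overlapped, by 4 to 80 bp with a median of 53 bp, and these loci spanned 64 to 328 bp with a median of 112 bp. At the other 8, which are *PSR1*, *YIL046W-A*, *HHT2*/*HHF2*, *SED1*, *PIG2*, *YGR079W*/*TWF1*, *DPH5* and *CTK3*, insertions of different lists lay 109 to 448 bp apart with a median gap of 277 bp. The overlapping loci held 39 of the 58 insertions.

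The interval between *CDC14*, which encodes the phosphatase of mitotic exit, and *SUP6*, a tyrosine tRNA gene, gave the most insertions. It lies on chromosome VI from 210328 to 210460, 259 bp from *CDC14* and 158 bp from *SUP6*, and touches no annotated gene. The *rtt105*Δ *rad27*Δ list had 4 insertions there, from 210328 to 210377, 210366 to 210415, 210372 to 210437 and 210380 to 210454, all on the minus strand. The *rad27*Δ insertion ran from 210345 to 210406 on the minus strand, and the *rad27*Δ *rfa1*-t33 insertion ran from 210346 to 210460 on the plus strand. The left ends of the *rad27*Δ and *rad27*Δ *rfa1*-t33 donors were 1 bp apart although their strands differed, and the 6 donors were 50 to 115 bp long.

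*SHE10*, a gene linked to the assembly of the outer spore wall, gave 5 insertions at its 3′ end (chromosome VII, 67598 to 69331, plus strand). The 4 *rtt105*Δ *rad27*Δ donors ran from 69268 to 69385, 69286 to 69379, 69305 to 69379 and 69324 to 69383, and the *rad27*Δ donor ran from 69302 to 69381. All 5 were on the coding strand and crossed the end of the reading frame. They stopped 48 to 54 bases past it, a range of 6 bp, while their left ends spread over 56 bp.

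The third locus with more than 3 insertions was the 5′ end of *YJR115W*, a gene of unknown function on chromosome X (639942 to 640451, plus strand). The *rtt105*Δ *rad27*Δ donors ran from 639921 to 640023 and from 639955 to 640016 on the coding strand and from 639944 to 640032 on the template strand. The *rad27*Δ donors ran from 639975 to 640035 and from 640000 to 640051 on the coding strand and came from different sequencing runs. All 5 shared the 17 bp from 640000 to 640016, inside the reading frame, and the first of them began 21 bases before it.

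*PSR1*, which encodes a plasma membrane phosphatase of the sodium stress response, was the second locus with donors in all 3 lists, but those donors did not overlap. On chromosome XII the *rtt105*Δ *rad27*Δ donor ran from 129801 to 129878, the *rad27*Δ donor from 130102 to 130151 and the *rad27*Δ *rfa1*-t33 donor from 130394 to 130501. The closest of them were 223 bp apart. The first was on the template strand and the others were on the coding strand.

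*FLO1* encodes the surface lectin of flocculating cells and contains long internal repeats that *FLO5* and *FLO9* partly share. The copy that donated the DNA, the position within the gene and the overlap of donors are therefore uncertain. As listed, the *rad27*Δ donor at *FLO1* covered 47 bp from 206260 to 206306 on the coding strand of chromosome I. It lay within the *rad27*Δ *rfa1*-t33 donor, 110 bp from 206223 to 206332 on the template strand. *DPH5*, a methyltransferase gene of diphthamide synthesis on chromosome XII, had a *rad27*Δ donor that crossed the end of the reading frame (501233 to 501287) and a *rtt105*Δ *rad27*Δ donor downstream of it (501052 to 501118). The gap between them was 114 bp.

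**Figure D2:**
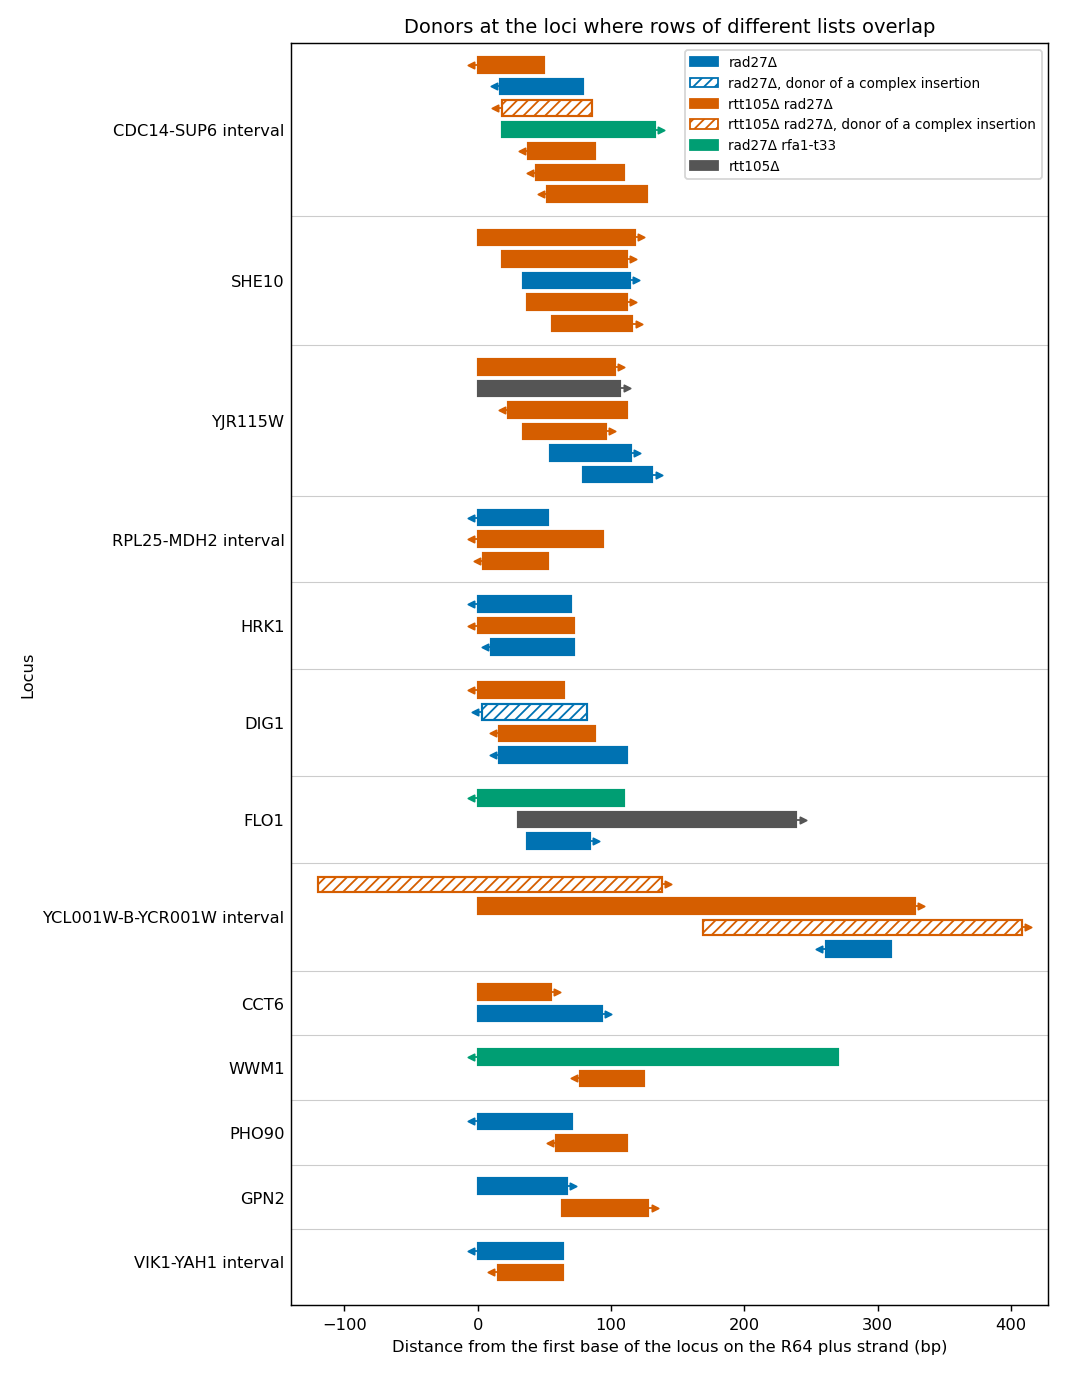
Donors at the 13 loci where insertions of different lists overlapped, drawn to scale as bars with an arrow for the strand. The x axis is the distance in bp from the first base of the locus; hatched bars are donors of complex insertions and grey bars are *rtt105*Δ insertions, neither of which chose the loci.

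Breakpoints coincided to the base at 5 loci. A left end was identical between lists in 4 of them, at position 81638 between *RPL25* and *MDH2* (chromosome XV), at 822919 in *HRK1* (chromosome XV), at 462407 beside *DIG1* (chromosome XVI) and at 836329 upstream of *CCT6* (chromosome IV). A right end was identical in 3, at 81690 between *RPL25* and *MDH2*, at 822990 in *HRK1* and at 73098 between *VIK1* and *YAH1* (chromosome XVI). An end was shared within 5 bp at 8 loci, and both ends of a pair of insertions were within 5 bp at 3 loci, namely *SHE10*, the *RPL25*-*MDH2* interval and *HRK1*.

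*HRK1*, a kinase gene that acts on the plasma membrane proton pump, had the most uniform donors. The *rad27*Δ donors ran from 822919 to 822988 and from 822929 to 822990, in different sequencing runs, and the *rtt105*Δ *rad27*Δ donor ran from 822919 to 822990. All 3 were on the coding strand. In the convergent interval between *RPL25*, a ribosomal protein gene, and *MDH2*, which encodes cytosolic malate dehydrogenase, the *rad27*Δ donor ran from 81638 to 81690 and the *rtt105*Δ *rad27*Δ donors from 81638 to 81731 and from 81642 to 81690. These donors were also all on 1 strand, 55 bp from *MDH2* and 447 bp from *RPL25*.

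The end of *DIG1*, whose product restrains the mating and filamentation factor Ste12, gave 3 minus-strand donors, of which the *rad27*Δ donor (462407 to 462502) reached into the gene and the *rtt105*Δ *rad27*Δ donors (462391 to 462455 and 462407 to 462478) ended before it. *CCT6*, a subunit gene of the cytosolic chaperonin, had a *rad27*Δ donor from 836329 to 836421, whose last base was the first base of the reading frame, and a *rtt105*Δ *rad27*Δ donor from 836329 to 836383. Between *VIK1*, which encodes a kinesin partner, and *YAH1*, the mitochondrial ferredoxin gene, the donors ran from 73035 to 73098 in *rad27*Δ and from 73050 to 73098 in *rtt105*Δ *rad27*Δ. In each of these 3 loci all donors were on the same strand.

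In *WWM1*, a gene for a WW-domain protein, the 270 bp *rad27*Δ *rfa1*-t33 donor contained the 48 bp *rtt105*Δ *rad27*Δ donor. The overlap was 12 bp in *PHO90*, a low-affinity phosphate transporter gene, and 4 bp in *GPN2*, which encodes a GTPase of RNA polymerase assembly. The widest overlapping locus was the 328 bp between *YCL001W-B* and *YCR001W*, an interval that holds the centromere of chromosome III, where a *rtt105*Δ *rad27*Δ donor (114249 to 114576, plus strand) contained a *rad27*Δ donor (114510 to 114558, minus strand). The *rtt105*Δ *rad27*Δ donor was the longest at any of the 21 loci among the lists that chose them.

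The 8 loci without overlap rest on the merging distance. At the divergent histone genes *HHT2* and *HHF2* (chromosome XIV), *rad27*Δ donors covered the start of *HHT2* (575983 to 576061) and the inside of *HHF2* (576905 to 576977), and a *rtt105*Δ *rad27*Δ donor lay between the genes (576489 to 576573). Histones H3 and H4 have a second gene pair in yeast. Whether donors inside these reading frames could also be placed at the other pair was not examined. *SED1*, a cell wall glycoprotein gene with internal repeats, had a *rtt105*Δ *rad27*Δ donor from base 453 to 521 and a *rad27*Δ donor from base 635 to 698 of its reading frame. Whether these donors could also be placed elsewhere among the repeats was not examined.

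Within *PIG2*, a gene for a presumed regulator of glycogen synthesis, the *rad27*Δ *rfa1*-t33 and *rad27*Δ donors were 448 bp apart, the largest gap between lists that was merged. In *CTK3*, a subunit gene of the kinase that modifies the tail of RNA polymerase II, the gap was 382 bp. It was 420 bp between a donor at the end of *YGR079W* and a donor in *TWF1*, the twinfilin gene. At *YIL046W-A*, a small reading frame upstream of the F-box gene *MET30*, it was 109 bp. Just beyond the distance, *ARO1* had donors of 2 lists 594 bp apart, an unannotated place on chromosome XIV 686 bp, *GAL11* 816 bp and *DIT1* with *RPB7* 840 bp. At the other limit, *FLO1* was the locus nearest to a chromosome end, 20.53 kb from the last annotated or listed position.

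**Figure D3:**
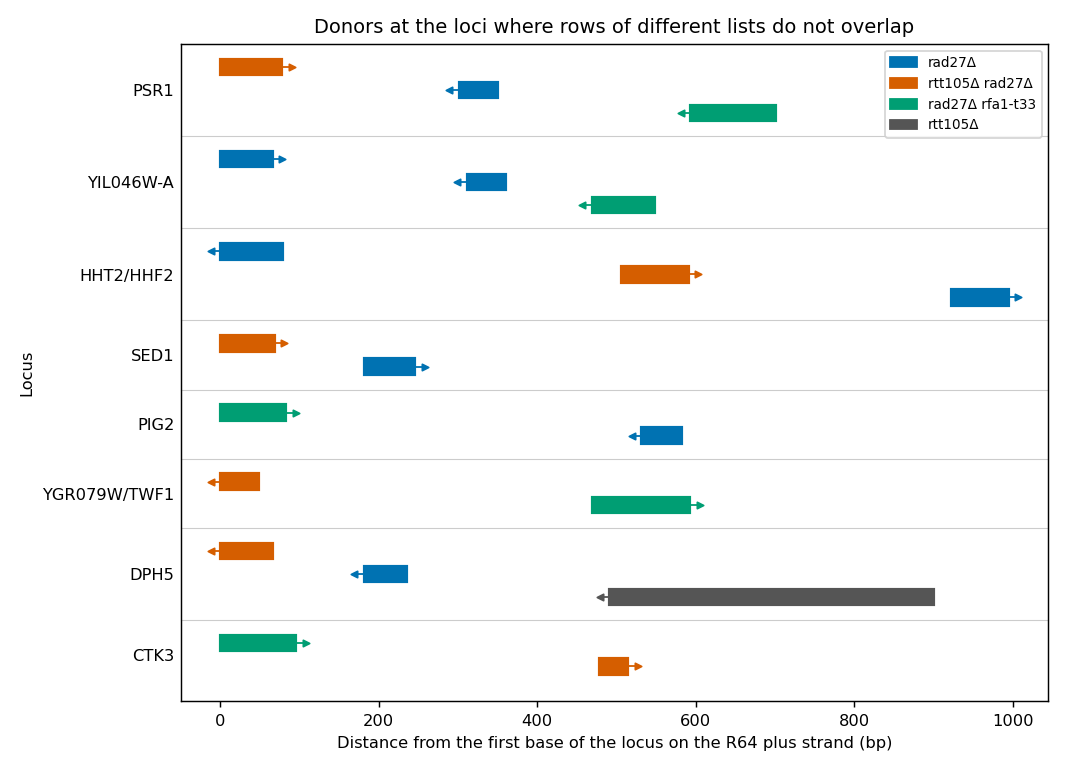
Donors at the 8 loci where insertions of different lists did not overlap, drawn as bars with an arrow for the strand against the distance in bp from the first base of the locus. The gaps between lists range from 109 bp at *YIL046W-A* to 448 bp at *PIG2*, and the grey bar is the *rtt105*Δ insertion at *DPH5*.

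All donors of a locus were on 1 strand at 12 of the 21 loci, 9 of the 13 with overlap and 3 of the 8 without. Loci with only 2 donors also numbered 12, in part other loci, and so few donors fall on 1 strand easily. The same count was not made for the other merged loci. At 11 of the 13, at least 1 pair of overlapping donors from different lists had the same strand, a count that grows with the number of donors and that includes the *CDC14*-*SUP6* interval and *YJR115W*, where 1 donor was on the opposite strand. The exceptions were *FLO1* and the interval between *YCL001W-B* and *YCR001W*.

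Relative to the genes, 38 of the 58 donors overlapped a reading frame and 30 of these (78.9%) were on its coding strand. Among the other interior insertions of the same lists it was 194 of 327 (59.3%). By list, donors on the coding strand were 14 of 17 at the loci against 93 of 152 elsewhere in *rad27*Δ. They were 11 of 15 against 85 of 142 in *rtt105*Δ *rad27*Δ and 5 of 6 against 16 of 33 in *rad27*Δ *rfa1*-t33. The strand is the one listed for the donor, and which strand of the genome was copied was not determined. Donors of a locus are not independent, so no test was made. By locus, all donors in a gene were on the coding strand at 10 of 17 loci and on the template strand at 2 (*PHO90* and *YIL046W-A*), and both strands occurred at 5. At *CCT6*, *DIG1*, *DPH5* and *YIL046W-A* only 1 donor lay in the gene, so both strands could not occur. At *YGR079W*/*TWF1*, counted among the 5, and at *HHT2*/*HHF2*, counted among the 10, the donors compared lay in different genes, 1 in each. The same count was not made for the other merged loci.

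Donor lengths at the loci were close to those elsewhere in the same list. At the loci they were 37 to 328 bp with a median of 67 bp, and elsewhere in the interior 25 to 463 bp with a median of 65.5 bp. The medians at the loci and elsewhere were 63 and 61 bp in *rad27*Δ, 66.5 and 66 bp in *rtt105*Δ *rad27*Δ and 109 and 103 bp in *rad27*Δ *rfa1*-t33. At the loci, none of the 8 *rad27*Δ *rfa1*-t33 donors was under 79 bp, whereas all 22 *rad27*Δ donors were 47 to 96 bp.

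**Figure D4:**
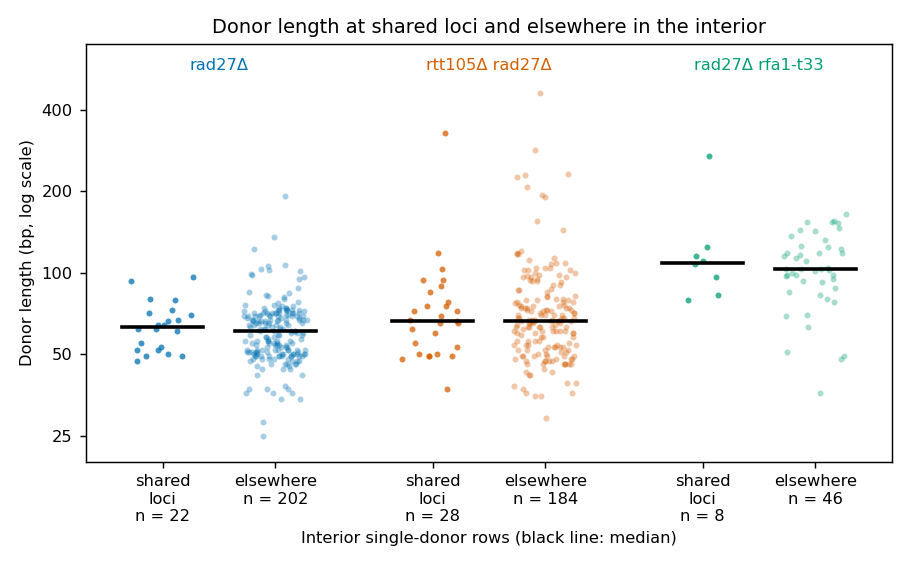
Length of each interior single-donor insertion (y axis, bp on a log scale) in the 3 rad27-lacking genotypes, at the shared loci and elsewhere, with black lines for medians. The medians at the loci differ from those elsewhere by far less than the spread of the points, and the *rad27*Δ *rfa1*-t33 donors have the highest median in both places.

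The kinds of genes at the loci were mostly those of the merged loci in general. Donors overlapped a protein-coding gene at 17 of the 21 loci, and at 76.6% of all 445. The 4 intergenic loci lay between tandem genes in 3 cases and between convergent genes in the *RPL25*-*MDH2* interval. Of a list of 29 cell wall and flocculin genes made by hand, members were overlapped at 2 loci, *FLO1* and *SED1*. Over all merged loci it was 1.12%, which are 5 loci in total, and these counts depend on the genes put on the list. The other donors in this list of 29 genes were 1 each in *FLO5*, *FLO11* and *MSB2*. Of the 138 ribosomal protein, 21 glycolytic and 18 hexose transporter genes and of the 76 snoRNA genes, none was overlapped by a donor at the 21 loci, against 0.449%, 0.449%, 0.225% and 0.225% of the merged loci. No tRNA gene was overlapped either (0.899% of merged loci), and the *CDC14*-*SUP6* interval was the 1 locus within 500 bp of a tRNA gene, against 4.49%.

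Whether the same places donate DNA when Rad27 is present was examined in lists that had no part in choosing them. Of 223 interior insertions of *rtt105*Δ, 3 were at the shared loci (1.35%, exact 95% interval 0.278 to 3.88). None of 22 was in *rfa1*-t33, which allows a share of up to 13.6%, none of 30 in *sgs1*Δ *exo1*Δ, which allows up to 10.0%, and none of 10 in *sgs1*Δ, which allows up to 30.0%. These limits take a 0 as 3 counts, and the upper ends of the exact 95% intervals were 15.4%, 11.6% and 30.8% in the same order. Such intervals cover counting error only, because the reads were amplified and carry no molecular identifier that would make each an independent molecule. No difference in share passed the test between *rtt105*Δ and *rfa1*-t33, *rtt105*Δ and *sgs1*Δ *exo1*Δ or *rfa1*-t33 and *sgs1*Δ *exo1*Δ (adjusted p = 1.0 in each of the 3 pairs, Fisher's exact test, two-sided, Benjamini-Hochberg), and with 0 to 3 insertions at the loci a difference was not detectable at these counts.

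**Figure D5:**
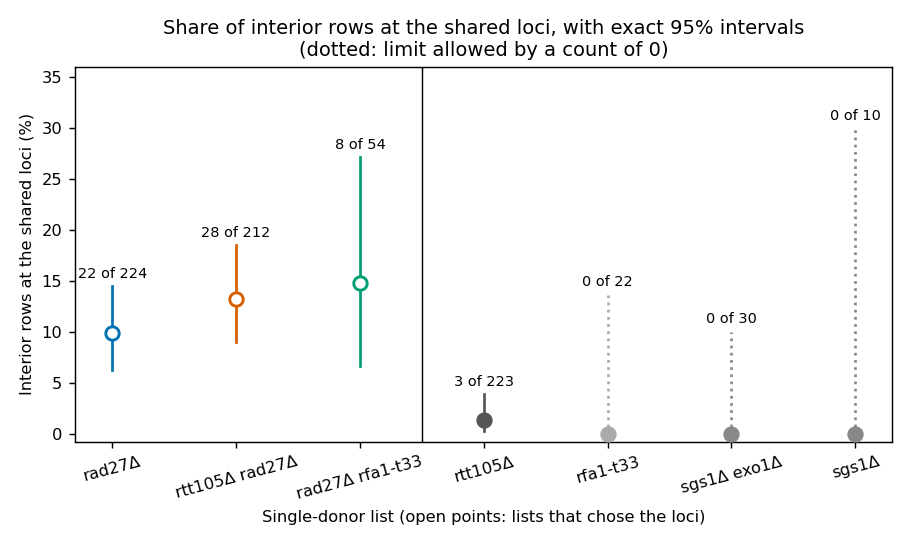
Percentage of interior single-donor insertions at the shared loci (y axis) for 7 genotypes (x axis), with exact 95% intervals or, dotted, the limit that a count of 0 allows when taken as 3 counts. Open points are the 3 lists that chose the loci, so their shares of 9.82% to 14.8% are raised by that choice to an unknown extent. Their intervals do not allow for the choice, and these shares cannot be compared with those of the other lists. The *rtt105*Δ list had 3 of 223.

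The 3 *rtt105*Δ insertions were at *FLO1*, *YJR115W* and *DPH5*. At *YJR115W* the *rtt105*Δ donor ran from 639921 to 640027 on the coding strand, so that its left end was the same base as that of a *rtt105*Δ *rad27*Δ donor and its right end was 4 bp from it. At *FLO1*, where placement among the repeats is uncertain, it covered 209 bp from 206253 to 206461 on the coding strand and included the *rad27*Δ donor. At *DPH5* it ran from 501543 to 501952 inside the gene, 255 bp from the nearest donor of the locus. The lengths were 107, 209 and 410 bp, beside a median of 147 bp over all interior *rtt105*Δ insertions.

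The *rtt105*Δ and *rad27*Δ lists share 1 sequencing run, which gave 17 interior *rtt105*Δ insertions, 0 of them at the loci, and 8 interior *rad27*Δ insertions, 1 of them at the loci. All 3 *rtt105*Δ donors at the loci came from the other *rtt105*Δ run, which gave no insertion to the *rad27*Δ or the *rtt105*Δ *rad27*Δ list. A *rtt105*Δ insertion lay within 500 bp of 3 of the 21 loci and of 21 of the other 424, together 5.39% of the 445. With *rfa1*-t33 insertions added it was 3 of 21 and 24 of 424, together 6.07%. Overlap with such an insertion was found at 2 of the 21 and at 2.92% of all. The shared loci are also wider, with a median span of 133 bp against 66 bp for the others, and the part of this width in the counts was not tested. The *rfa1*-t33 list, with 0 of 22 at the loci, shares a sequencing run with the *rtt105*Δ *rad27*Δ list.

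Complex insertions, which join more than 1 donor at the break, had no part in the choice either. In the 3 rad27-lacking genotypes 3 of 33 complex insertions with an interior donor had a donor at a shared locus (9.09%, exact 95% interval 1.92 to 24.3). In *rtt105*Δ and *rfa1*-t33 together it was 0 of 25, which allows up to 12.0% when a 0 is taken as 3 counts. The difference did not pass the test (p = 0.251, Fisher's exact test, two-sided). The comparison is not an even one, because single donors of the rad27-lacking genotypes chose the loci and those of *rtt105*Δ and *rfa1*-t33 did not. The test also takes each insertion as a unit, since the lists name no library. Such donors lay within 500 bp of 3 of the 21 loci and of 8 of the other 424, together 2.47%.

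All 3 complex insertions overlapped single donors of their locus. In *rtt105*Δ *rad27*Δ a donor at the *CDC14*-*SUP6* interval ran from 210346 to 210413 on the minus strand, with the same left end as the *rad27*Δ *rfa1*-t33 donor, and was joined to 26 bp of chromosome II from 353636 to 353661. In *rad27*Δ a donor beside *DIG1* ran from 462394 to 462472 on the minus strand, as the single donors there did, and was joined to 46 bp at the left end of chromosome IV. In *rtt105*Δ *rad27*Δ both donors of an insertion came from the interval between *YCL001W-B* and *YCR001W*, from 114129 to 114386 and from 114418 to 114656, both on the plus strand.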

How the data were processed

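Insertions at the HO break at *MAT***a** were taken from the donor lists of 16 genotypes. Reads had been cleaned by the authors (BBDuk), paired ends joined (PEAR), junctions with an insertion over 10 bp detected (BLASTN) and redundant reads collapsed. The values deposited, of a unit other than counts, are start and end of a donor in base pairs (R64) and its strand. They are pooled over the libraries of a genotype, so depth per library is unknown. Starts were made 1-based by adding 1. Of 30 files, 4 were not used: a text list of libraries, 2 lists of a genotype that no library has and a list without donors. Wild-type lists were not analysed here. No column was taken from another series (0 such columns).

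Interior donors were filtered and merged as given in the report, with the right chromosome end at the largest annotated or listed position. Gene names and positions came from the RefSeq table of R64, and strands from systematic names. The sequence of the donors was not analysed here. Loci, gene lists and tests were chosen with earlier results of these data known. All 21 loci were named, and those with donors in all 3 lists, at least 4 insertions or a *rtt105*Δ or *rfa1*-t33 insertion were given in full. Shares had exact (Clopper-Pearson) 95% intervals, a count of 0 was given the limit of 3 counts, and Fisher's exact test was two-sided. As a check of the code only, the search recovered 30 of 30 loci planted in simulated lists. The planted pairs lay within the merging distance and far from other places, so this outcome was fixed in advance. Alternatives were other merging and end distances, near-identical insertions counted once or left out, complex donors added to the choice, sequencing runs left out, the chi-square test and rates per colony. Python 3.11.15, NumPy 2.4.6, pandas 2.3.3, SciPy 1.17.1 and Matplotlib 3.10.9 were used.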

Additional observations from a re-analysis of the deposited data

How the results depend on the processing

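The number of shared loci, 21 in the report, was 15 to 27 under 10 alternatives, and a merging distance of 200 bp kept 16 of the 21. It fell to 9 when the largest of the 3 *rad27*Δ sequencing runs was left out, which holds 185 of the 224 interior insertions, and to 13 when only overlapping insertions were merged, an alternative added after the data had been examined, as was the omission of the *rad27*Δ *rfa1*-t33 list, which kept 15. The number of loci with a *rtt105*Δ or *rfa1*-t33 insertion, 3 in the report, was 6 with merging over 1000 bp, 1 without the largest *rad27*Δ run and 2 or 3 otherwise. The share of *rtt105*Δ insertions, 1.35% in the report, was 0.448% without the largest *rad27*Δ run and 2.69% with merging over 1000 bp, all within its interval. The share of complex insertions in rad27-lacking lists, 9.09% in the report, was 3.03% at the loci chosen without that run. The complex insertions of the run itself were still counted. No test passed the threshold, with adjusted p of 0.584 to 1.0 for the pairs of lists and p of 0.126 to 1.0 for complex insertions. Complex insertions were not compared where their donors defined the loci. No paired analysis was possible because the lists pool the libraries of a genotype, and for the same reason no library could be left out. Removal of solo long terminal repeats and the search for tandem repeats were not run, since they need a repeat annotation and a genome sequence, which were not used here. A count of 0, taken as 3 counts, allowed shares of up to 13.6% in the *rfa1*-t33 list and of up to 10.0% in the *sgs1*Δ *exo1*Δ list.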

Other observations

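A place at the end of *UBP14*, a ubiquitin protease gene on chromosome II (353672 to 356017, minus strand), missed the rule because its 3 single-donor insertions all came from *rad27*Δ (353592 to 353686, 353605 to 353663 and 353609 to 353677, all on the plus strand). Complex insertions used the same stretch in *rad27*Δ 2 times and in *rtt105*Δ *rad27*Δ 4 times, and these 6 donors were all on the minus strand. Of the 4 pairs in *rtt105*Δ *rad27*Δ, 2 recurred in *rad27*Δ. In *rad27*Δ the donor from 353600 to 353655 was joined to 30 bp upstream of *SES1* on chromosome IV (489443 to 489472), and in *rtt105*Δ *rad27*Δ the donor from 353598 to 353651 was joined to the same 30 bp. Likewise, the *rad27*Δ donor from 353610 to 353683 and the *rtt105*Δ *rad27*Δ donor from 353604 to 353683 were each joined to the same 31 bp between *RPL39* and *SWE1* on chromosome X (76564 to 76594). The other 2 partners in *rtt105*Δ *rad27*Δ, on chromosome VII (1063416 to 1063447) and at the *CDC14*-*SUP6* interval (210346 to 210413), were not among the *rad27*Δ pairs. Neither recurring partner was overlapped by any other listed donor of the series, and the lists of both genotypes share no sequencing run. This place was chosen after its values were seen, and the recurrence of the pairs was not tested.

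Other places with several insertions of 1 list were *YAT1*, the outer carnitine acetyltransferase gene, with 3 insertions of *rtt105*Δ *rad27*Δ and 1 of *rtt105*Δ, and *ECM33*, *ROF1*, *GAT2* and *PBI2* with 2 of *rtt105*Δ *rad27*Δ each. Per 100000 colonies, insertions at the shared loci numbered 2.68 in *rad27*Δ, 25.0 in *rtt105*Δ *rad27*Δ, 53.4 in *rad27*Δ *rfa1*-t33 and 0.801 in *rtt105*Δ. All interior insertions numbered 27.3, 190, 361 and 59.6 in the same order, so the rates at the loci also carry differences found over the whole interior. The first 3 lists chose the loci, which raises their rates there against *rtt105*Δ. Both *rad27*Δ rates count the colonies of the libraries labelled 37 °C. Over the 600672 colonies of the other 11 libraries the rate at the shared loci was 3.66, and the interior rate was not recomputed. Colonies were not normalized by HO cutting here, whereas the paper normalized them, so the rates of different genotypes are not strictly comparable.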
